A study of Rattus norvegicus with 6 samples.

Results

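Astrocyte and progenitor marker genes were followed in cultured rat oligodendrocyte precursors through the probes of 5 genes, out of 20174 genes with a probe on the array. The genes were Gfap (ENSRNOG00000002919), Vim (ENSRNOG00000018087), Nes (ENSRNOG00000018681), S100b (ENSRNOG00000001295) and Aqp4 (ENSRNOG00000016043). Each has 1 probe and was selected by its Ensembl gene identifier. The choice was made with earlier results of these data known. Total RNA was hybridised to 6 single-colour arrays, with 3 for undifferentiated precursors (day 0) and 3 for differentiated cells (day 3). All cultures were of rat oligodendrocyte precursors in Raff medium, and the day 3 cells had been differentiated by a change of growth factors. The labels give no strain, animal age, brain region or way of purifying the precursors. On each day the titles number 2 arrays and leave 1 unnumbered, and the arrays are named here by day and by that number.

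Glial fibrillary acidic protein (Gfap), vimentin (Vim) and nestin (Nes) are intermediate filament proteins. Filaments of nestin and vimentin are typical of dividing neural progenitors, and Gfap is the classical filament of astrocytes. Aqp4 is the water channel of astrocyte membranes, and S100b is a calcium-binding protein found in astrocytes and also in cells of the oligodendrocyte lineage. Rat oligodendrocyte precursors can form astrocytes in culture when serum is present, and preparations from neonatal brain can carry astrocytes along, so these genes are commonly used to describe such cultures. In RNA from a whole culture, fewer cells of a type and less RNA per cell cannot be told apart.

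All 5 genes were detected on all 6 arrays. Each array carries 5808 blank spots, and a gene counted as detected above the blank mean plus 2 SD, computed without the top and bottom 5% of the blanks. The limits lay between 13.9 and 16.9 scanner units, and 74.3% to 83.4% of the genes per array were above them. Gfap came closest to the limit, with a signal of 3.46 to 12.3 times it. The range was 8.63 to 43.0 times the limit for Aqp4, 16.3 to 48.2 for Nes, 52.9 to 369 for S100b and 490 to 965 for Vim. Higher limits, from 3 SD or from the 96 negative control spots, also left all 5 genes above the limit on all 6 arrays. Probes differ in how strongly they bind, so these multiples describe detection and do not rank the genes by RNA amount. The median gene signal was 31.7 to 38.9 on the day 0 arrays and 26.4 to 35.8 on the day 3 arrays.

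**Figure D1:**
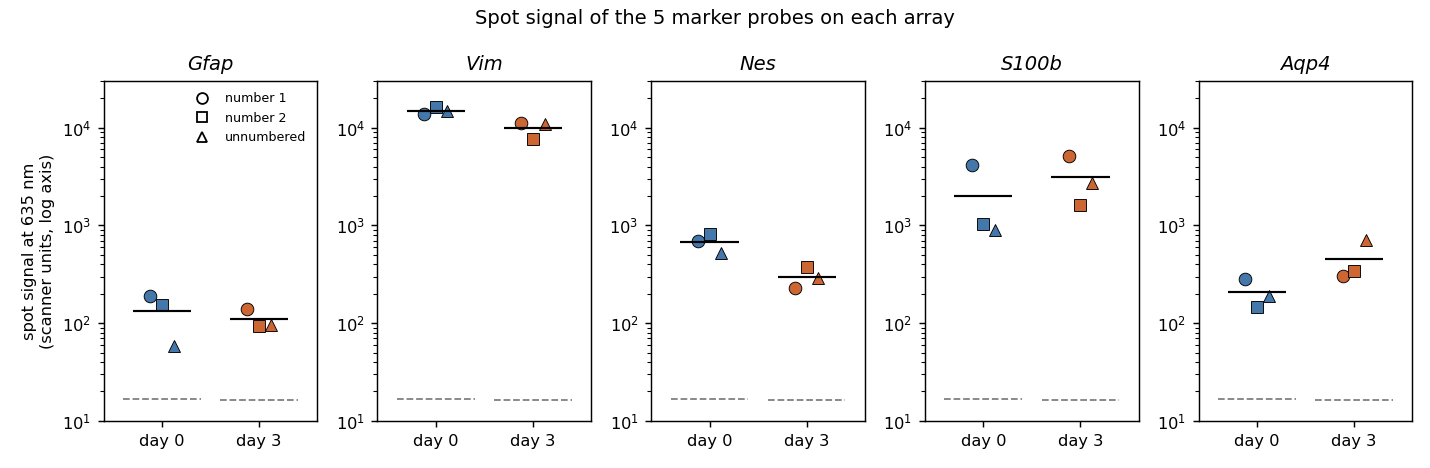
Spot signal at 635 nm in scanner units, on a log axis, for the 5 genes on each of the 6 arrays. Bars are the means of 3 arrays, symbols give the array number, and dashed lines mark the highest detection limit of the day. All points lie above the limit. The 3 day 3 points of Vim and Nes lie below the 3 day 0 points, those of Aqp4 lie above, and those of Gfap and S100b overlap.

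The design asks what differs between precursors and differentiated cells. Nes had lower and Aqp4 higher spot signals on every day 3 array than on any day 0 array. Before scaling, 18.6% of all genes tested were lower and 3.49% higher in this way. S100b and Gfap overlapped, S100b with the signal itself was higher at day 3 within each array pair, and the order of Vim depended on the scaling. None of the 5 differences passed the test across all genes (passing is called a call here). Day 3 was compared with day 0 on 3 scales. The signal itself is log2 of the spot signal plus 50, quantile normalised between arrays, and is the main scale. The authors' processed values are those of the deposited series table, on a linear scale. The third scale corrects for the deposited background column by limma's normexp (offset 50), not plain subtraction, before log2 and quantile normalisation. On none of them did any of the 5 genes pass limma's test across all genes at an adjusted p under 0.05 (0 of 5). Of the 15437 genes tested with the signal itself, 1.04% passed, 0.726% as higher and 0.317% as lower at day 3. In the authors' processed values 2.4% passed, and with the background column 0.0324%. For the signal itself, at an unadjusted limma p under 0.05 there were 2 of 5, Nes and Aqp4, against 13.2% of all genes. In the authors' processed values the same 2 genes were under 0.05, as were 1542 of all 14431 genes. With the background column only Aqp4 was, beside 1127 of all 15437 genes. The median log2 change over the 5 genes was 0.07, which is the value of Gfap, and the genes went in both directions. Over all genes tested the median was -0.0042, and quantile normalisation tends to keep it near 0. These medians therefore do not describe the 5 genes as a set. The labels do not say whether the arrays of a day came from separate cultures, so every p-value rests on the spread among the arrays, part or all of which may be technical.

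Nestin had the lower values at day 3. The day 0 signals were 688 on number 1, 817 on number 2 and 520 on the unnumbered array. The day 3 signals were 227, 378 and 288 in the same order. Every day 3 array therefore lay below every day 0 array, as for 18.6% of all genes before scaling, and the mean went from 675 ± 149 to 298 ± 76.3 (SD, n = 3). The order held with the signal itself, where 9.11% of all genes tested had all day 3 arrays lower, and in the authors' processed values, where 6.33% did. The log2 change was -0.78 with the signal itself (SE 0.23, 95% interval -1.36 to -0.20), and its adjusted p was 0.230 (limma). A change as low was found in 1.65% of the genes tested. The authors' processed values of Nes were 395, 381 and 279 at day 0 and 144, 256 and 177 at day 3, with a log2 change of -0.90 (SE 0.37, adjusted p = 0.358, limma). The log2 changes of Nes were -0.96 in number 1, -0.67 in number 2 and -0.72 in the unnumbered pair, with the signal itself. Because the days did not overlap on that scale, any pairing of the arrays gives 3 of 3 pairs lower.

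The Nes difference was smaller and wider with the background column. That column held 97.7% of the Nes signal on day 0 number 1, so that 688 less 673 left 15.7 scanner units there. The same subtraction left 354 (number 2) and 163 (unnumbered) at day 0, and 28.9, 108 and 34.5 on the day 3 arrays. With the normexp correction by that column the log2 change was -0.48 (SE 0.63, 95% interval -2.13 to 1.16, adjusted p = 0.972, limma) and the days overlapped. Plain subtraction of the column gave -0.51 (SE 1.14, adjusted p = 0.955, limma).

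The vimentin difference depended on the scaling. Its spot signal was 13754, 16352 and 14690 at day 0 on number 1, number 2 and the unnumbered array, and 11273, 7678 and 10962 at day 3. Before scaling, every day 3 array lay below every day 0 array, as did 18.6% of all genes tested, while 3.49% lay above. The authors' processed values were 8046, 7752 and 8105 at day 0 and 7571, 5389 and 7087 at day 3, still without overlap, and the lowest value came from day 3 number 2. With the signal itself the days overlapped, and the log2 change was -0.07 (SE 0.17, 95% interval -0.50 to 0.36, adjusted p = 0.964, limma). In the authors' processed values it was -0.27 (SE 0.34, adjusted p = 1.0, limma). Other scalings of the same log2 values gave larger differences: -0.52 with median scaling (SE 0.18, unadjusted p = 0.0311, adjusted p = 0.285, limma), -0.38 with 75th percentile scaling (adjusted p = 0.218, limma) and -0.60 with no scaling (unadjusted p = 0.0143, adjusted p = 0.174, limma). The 75th percentile scaling placed the median change of all genes at 0.12. Relative to the all-gene median of its own scaling, Vim was at -0.50 with each of these 3. They differ only by a constant per array, so this agreement was fixed in advance. The 3 are therefore not separate checks. The array pairs did not share a direction: 0.21 in number 1, -0.15 in number 2 and -0.28 in the unnumbered pair, with the signal itself. The background column (normexp) gave Vim a log2 change of -0.25 (SE 0.34, adjusted p = 0.974, limma), and the days overlapped. Plain subtraction of that column gave -0.25 (SE 0.42, adjusted p = 0.935, limma).

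The sequences just upstream of the Vim and Nes transcripts are shown. These are the intermediate filament genes whose spot signal, before scaling, was lower on every day 3 array. With the signal itself the days of Vim overlapped. The sequences are given as follows. Each is the 250 bases before the annotated start in RefSeq (build GRCr8), 5′ to 3′ on the gene's strand, with matches to the motifs searched in capitals. The Vim stretch is chr17:81577011-81577260 (plus strand) and the Nes stretch is chr2:175736338-175736587 (plus strand).
Vim: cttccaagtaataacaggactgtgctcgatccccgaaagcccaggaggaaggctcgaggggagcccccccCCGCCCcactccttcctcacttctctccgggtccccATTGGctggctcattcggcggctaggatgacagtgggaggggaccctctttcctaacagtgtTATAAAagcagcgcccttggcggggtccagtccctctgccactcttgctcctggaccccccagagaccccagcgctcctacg
Nes: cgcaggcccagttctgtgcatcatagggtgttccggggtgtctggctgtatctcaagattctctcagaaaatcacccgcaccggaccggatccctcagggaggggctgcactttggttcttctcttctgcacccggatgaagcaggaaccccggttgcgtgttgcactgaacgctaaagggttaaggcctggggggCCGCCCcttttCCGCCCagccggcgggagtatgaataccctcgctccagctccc
The motifs, searched on both strands, were the TATA box TATAAA, the CCAAT box CCAAT, the GC box GGGCGG, the STAT motif TTCNNNGAA, the AP-1 motif TGANTCA and the SOX motif ACAANG. Vim has 1 TATA box, 1 CCAAT box and 1 GC box, whose first bases lie 82, 144 and 180 bases before the start. Nes has 2 GC boxes, 54 and 43 bases before its start, and no match to the other motifs in this window. Among the 33469 rat promoters of this length, 12.9% hold the TATA box, 34.0% the CCAAT box and 30.5% the GC box. Both stretches are rich in G and C (62.4% for Vim and 60.4% for Nes, against a median of 51.2%), and both hold more CG steps (11 and 14) than the median of 5. No matches in the marked stretches overlapped each other, and a match is a description of the letters only.

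Gfap, the astrocyte filament gene, had values that overlapped between the days. Its day 0 signals were 188 (number 1), 153 (number 2) and 58.5 (unnumbered). Its day 3 signals were 141, 92.9 and 95.2 in that order. The day 0 arrays thus included both the highest and the lowest of the 6 values, and the day 3 arrays fell between them. The mean signal went from 133 ± 67.1 to 110 ± 27.3 (SD, n = 3), a difference smaller than the SD of either day. The log2 change of the signal itself was 0.07 (SE 0.35, 95% interval -0.82 to 0.97, adjusted p = 0.988, limma). Its sign turned negative with median scaling (-0.05) and with no scaling (-0.13). The authors' processed values were 102, 65.8 and 23.8 at day 0 and 86.5, 55.1 and 52.0 at day 3, with a log2 change of 0.21 (SE 0.49, adjusted p = 1.0, limma). The array pairs went different ways, by 0.05 in number 1, -0.34 in number 2 and 0.51 in the unnumbered pair. The unnumbered day 0 array was the lowest of the 6, and without it the log2 change was -0.27 (adjusted p = 0.717, limma). The background column gave Gfap a log2 change of 0.0094 (SE 0.35, adjusted p = 0.998, limma).

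Aqp4, the astrocyte water channel gene, had the higher values at day 3. Its spot signal was 285, 146 and 189 at day 0 on number 1, number 2 and the unnumbered array, and 303, 343 and 704 at day 3. The days did not overlap, although day 0 number 1 and day 3 number 1 lay close together, and the unnumbered day 3 array was highest. The mean signal went from 207 ± 71.2 to 450 ± 221 (SD, n = 3). The days were also apart with the signal itself (all day 3 arrays higher in 10.2% of the genes tested), in the authors' processed values (7.59%) and with the background column (7.26%). Its log2 change was 1.17 with the signal itself, or 2.24-fold on that scale (SE 0.30, 95% interval 0.41 to 1.92), with an adjusted p of 0.184 (limma). A change as high was found in 1.07% of the genes tested. The Aqp4 change was 0.46 in number 1, 1.26 in number 2 and 1.78 in the unnumbered pair, so that the size of the difference varied. Its shared direction in 3 of 3 pairs follows from the lack of overlap between the days.

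The authors' processed values of Aqp4 were 159, 62.4 and 95.9 at day 0 and 195, 231 and 446 at day 3. These have no added offset, and their log2 change was 1.47, or 2.77-fold (SE 0.44, adjusted p = 0.131, limma). With the 3 array pairs as a replicate block, the adjusted p was 0.189 with the signal itself and 0.638 with the background column (limma). The same block in the authors' processed values gave 0.00108 (limma), in a fit that called 8.29% of its 14431 genes. That fit gave all 5 genes the same SE of 0.357, so it used 1 variance pooled over genes and not the spread of Aqp4 between its own pairs. With title style as the block it was 0.0285 (limma), in a fit that called 5.42%. These blocked fits of the authors' processed values, and the block with the background column, were chosen after the data were seen. With the background column the log2 change was 0.87 (SE 0.27, adjusted p = 0.587, limma). On day 3 the column took 60.5% of the unnumbered array's Aqp4 signal, and over the other arrays of both days 14.8% to 32.7%. After the normexp correction, day 0 number 1 (log2 8.15) and day 3 number 1 (log2 8.20) lay close together. Plain subtraction of the column left 232, 112 and 132 scanner units at day 0 and 204, 292 and 278 at day 3. Before scaling these remainders overlapped between the days, as day 3 number 1 lay below day 0 number 1.

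Of the 5 genes, only Aqp4 had its days apart on each of the 3 scales. RefSeq lists 2 start sites for it, and the 250 bases before each are shown here. Both lie on the minus strand of chromosome 18, at chr18:6798843-6799092 for the first and chr18:6797927-6798176 for the second (GRCr8).
Aqp4 start site 1: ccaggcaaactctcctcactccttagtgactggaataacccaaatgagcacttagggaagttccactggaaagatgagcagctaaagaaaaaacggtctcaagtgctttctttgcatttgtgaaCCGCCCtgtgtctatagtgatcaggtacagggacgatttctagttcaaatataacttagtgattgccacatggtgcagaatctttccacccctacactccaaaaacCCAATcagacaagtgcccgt
Aqp4 start site 2: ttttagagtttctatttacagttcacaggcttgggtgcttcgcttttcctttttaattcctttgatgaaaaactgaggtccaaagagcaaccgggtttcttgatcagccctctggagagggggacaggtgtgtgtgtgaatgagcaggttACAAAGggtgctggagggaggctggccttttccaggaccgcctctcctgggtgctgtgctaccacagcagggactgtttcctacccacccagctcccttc
Capitals mark the same motifs as above. The first holds a GC box 126 bases and a CCAAT box 20 bases before the start, and the second a SOX motif 100 bases before it, which 36.9% of all promoters also hold. Their share of G and C is 44.8% and 51.6%, with 4 and 3 CG steps. The files do not say which Aqp4 transcripts the probe detects. The same window of Gfap held no match to any of the motifs, and that of S100b held 3 CCAAT boxes, at 246, 135 and 38 bases before the start.

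S100b varied widely among the arrays of each day. Its day 0 signals were 4126 (number 1), 1045 (number 2) and 893 (unnumbered), and its day 3 signals were 5141, 1599 and 2702. Number 1 was the highest array on both days, and its day 0 value exceeded both other day 3 values. The mean signal went from 2021 ± 1824 to 3147 ± 1812 (SD, n = 3). Its log2 change was 1.13 with the signal itself, or 2.20-fold on that scale (SE 0.62, 95% interval -0.45 to 2.72, adjusted p = 0.567, limma), and 1.15% of the genes tested had a change as high. Within the pairs it was higher at day 3 in 3 of 3, by 0.75 in number 1, 1.06 in number 2 and 1.59 in the unnumbered pair. The share of all genes with the same direction in 3 of 3 pairs is not given here, so this count has no background. A replicate block of the 3 pairs gave an adjusted p of 0.121 with the signal itself and 0.0151 in the authors' processed values (limma). The latter fit is the one with a single pooled variance that called 8.29% of its genes, and was chosen after the data were seen. The authors' processed values of S100b were 2408, 489 and 485 at day 0 and 3448, 1114 and 1740 at day 3, a log2 change of 1.18 (SE 0.60, adjusted p = 0.547 without a block, limma). With the background column the log2 change was 1.16 (SE 0.73, adjusted p = 0.862, limma).

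**Figure D2:**
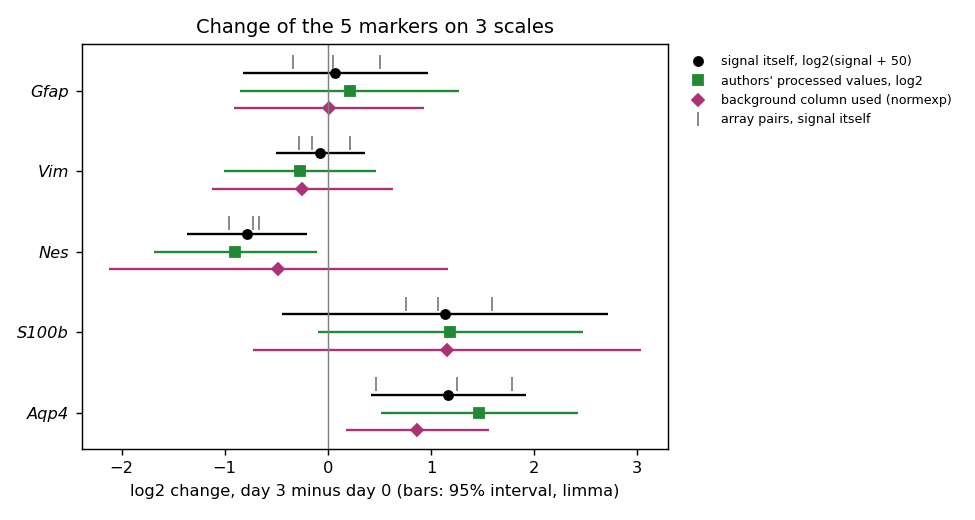
Log2 change from day 0 to day 3 for the 5 genes (horizontal axis), with limma's 95% interval as a bar, for the signal itself, the authors' processed values and the background-corrected values, and with each array pair as a grey tick. The intervals of Aqp4 lie above 0 on all 3 scales, that of Nes lies below 0 on 2 of them, and those of Gfap, Vim and S100b hold 0 throughout. These intervals are not adjusted for the number of genes tested. An interval without 0 equals an unadjusted limma p under 0.05, which 13.2% of all genes had with the signal itself. In the authors' processed values 1542 of 14431 genes had it, and with the background column 1127 of 15437.

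**Figure D3:**
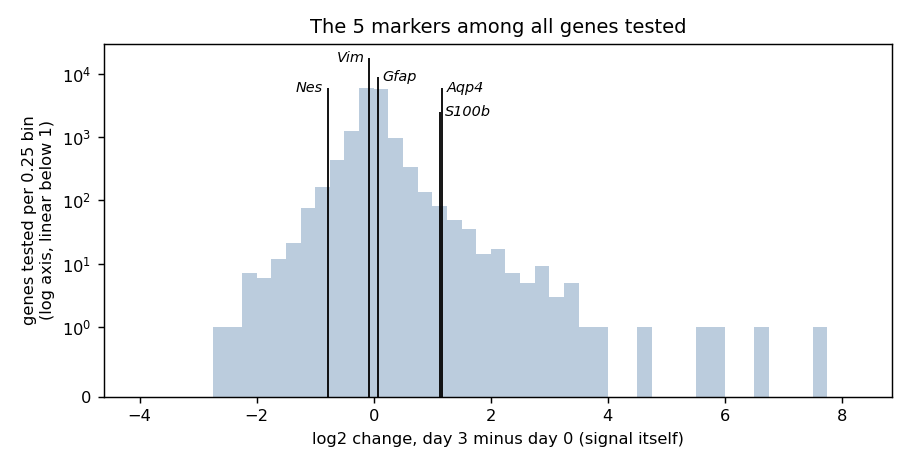
Number of genes tested per bin of 0.25 (vertical axis, log above 1 and linear below) by log2 change with the signal itself (horizontal axis). Lines mark the 5 genes: Gfap and Vim lie at the centre of all 15437 genes, Nes at -0.78 in the lower tail, and S100b and Aqp4 at 1.13 and 1.17 in the upper tail.

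Deviations of single arrays from their day's mean were partly shared by arrays of the same number. For S100b, in log2 units of the signal itself, they were 1.14 and 0.76 on the number 1 arrays of day 0 and day 3, -0.56 and -0.63 on the number 2 arrays, and -0.58 and -0.13 on the unnumbered arrays. For Gfap they were 0.40 and 0.38 on number 1, 0.30 and -0.12 on number 2, and -0.69 and -0.26 on the unnumbered arrays. On this scale number 1 had the highest value of both genes on both days, and the unnumbered array had the lowest Gfap value on both days. Nes was highest on number 2 on both days, by 0.29 and 0.41. On the same scale Vim was highest on the unnumbered arrays on both days, by 0.32 and 0.11, where Gfap was lowest. In spot signal this order did not hold. There Vim was highest on number 2 at day 0 (16352) and on number 1 at day 3 (11273). The lowest day 3 spot signal of Gfap was on number 2 (92.9). Aqp4 kept no such order, with 0.34 at day 0 and -0.36 at day 3 on number 1. Their part in the differences between days was not tested beyond the block fits given here.

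Ratios between 2 of the genes on the same array do not depend on a scaling factor between arrays, and all 10 pairs of the 5 genes were examined after subtraction of the mean blank signal. The ratio of Nes to Aqp4 was lower at day 3, with a log2 difference of -2.36 (SD 0.69 at day 0 and 0.75 at day 3, n = 3) and no overlap. Any pairing then gives the same direction in 3 of 3 pairs (here -1.76, -2.46 and -2.87). The ratio of Vim to Aqp4 was also lower on every day 3 array, with a log2 difference of -1.74 (SD 0.65 and 0.65, n = 3). In spot signal Nes and Vim were already lower and Aqp4 higher on every day 3 array, so the separation of both ratios restates those orders and gives only their size. The other 8 ratios overlapped between the days. The Gfap ratio differed by -1.26 against Aqp4 (exact permutation p = 0.20) and by -0.97 against S100b (exact permutation p = 0.30). With 3 arrays a day the exact two-sided permutation test cannot go below 0.10, which the 2 ratios without overlap reached, and their p adjusted over the 10 pairs by Benjamini-Hochberg was 0.333. For single genes, the same test on the quantile-normalised signal itself gave 0.10 for Nes and Aqp4, 0.30 for S100b and 0.80 for Gfap and Vim.

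The deposited background column differed between the 5 spots. It amounted to 49.7% to 77.5% of the Vim signal and 56.7% to 97.7% of the Nes signal. It was lower for Gfap (20.2% to 61.9%), Aqp4 (14.8% to 60.5%) and S100b (7.95% to 36.0%). Over all gene spots of an array its median share was 65.2% to 78.7%, and it rose with the spot's own signal (Spearman correlation across genes 0.92 to 0.97; genes are not independent replicates). The authors' processed values did not use it: on each array they equalled the spot signal less a constant that differed from the trimmed blank mean by at most 0.00087, times a factor that set the median of the values given to 25.

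**Figure D4:**
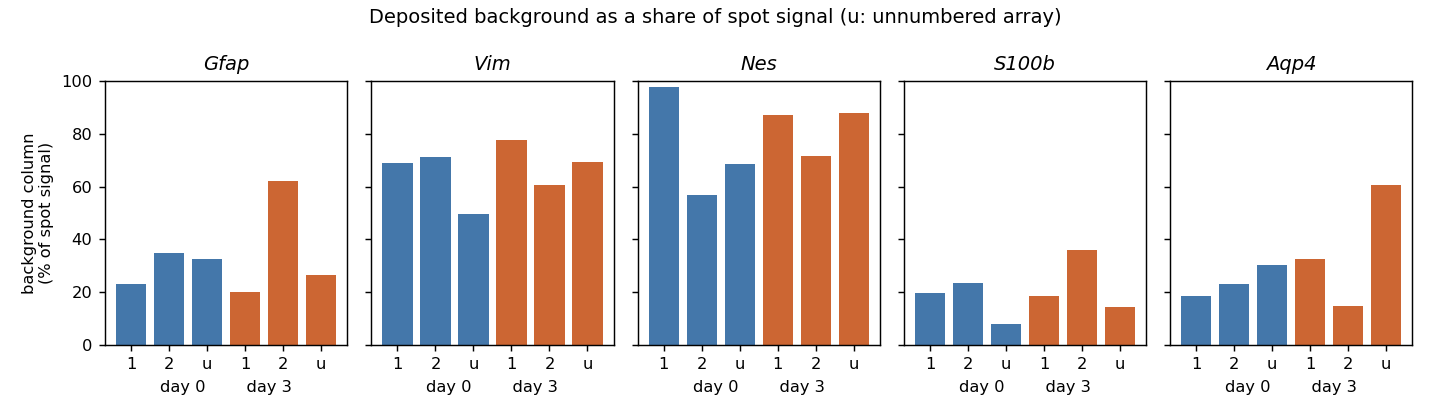
Background column as a percentage of the spot signal (vertical axis) for the 5 genes on each array (horizontal axis: numbers 1 and 2 and the unnumbered array u, by day). Nes on day 0 number 1 reaches 97.7%, and S100b stays between 7.95% and 36.0% on all arrays.

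The array profile most like that of Gfap belonged to ENSRNOG00000020068, with a Pearson r of 0.996 over the 6 arrays, and 121 of the genes tested had an r over 0.95. Its spot signal was 443, 392 and 278 at day 0 and 335, 279 and 326 at day 3. For Vim the most alike was ENSRNOG00000009405 (r = 0.987 over 6 arrays, with 31 genes over 0.95), a dim probe with signals of 17.5 to 28.7 scanner units. The arrays share their day, number and brightness, so these values describe likeness over 6 points and nothing more. No symbol for these identifiers was given in the files or in the reference table.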

How the data were processed

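Per the file headers, the authors deposited spot intensity medians (635 nm) with a background median for every spot, in scanner units, after readings at 3 gains; all 30 spots of the 5 genes carry the flag OK. Per the labels, RNA was amplified to amino-allyl RNA and coupled to Cy5. The deposited series table holds the authors' processed intensity values; their scale is linear, found by comparison with the spot signals. The scanner software is not named in the headers or labels.

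The main scale was log2(signal + 50) of the gene spots, quantile normalised; the offset understates changes of dim genes. The background column was left out of it because earlier results of these data had shown that it follows the spot's own signal; normexp on that column (offset 50) is given beside it. The authors' processed values were tested as log2 over the 14431 genes with a value on all 6 arrays. A gene entered the test when all arrays of 1 day or the other exceeded the limit (15437; all 5 genes passed). The test was lmFit and eBayes (limma 3.58.1, R 4.3.3) on the 6 arrays with no block, with Benjamini-Hochberg adjustment over every gene tested and a threshold of 0.05. The code was tested on simulated data. The number of arrays limits the precision.

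The 5 genes and all lists were chosen with earlier results of these data known. The symbols of the 5 identifiers were supplied with the gene set; 0 of the 20174 identifiers occur in the reference table (RefSeq, GRCr8), so 13 lists of other marker and pathway genes, including those of other cell types, were not used here, and the labelled cell type was not checked against its markers. Promoters were matched by symbol (5 of 5 genes, 6 start sites). The text names the 5 genes and the single gene most like Gfap and most like Vim, by a written rule. Numbers 1 and 2 in the titles are shared between the days, but no label says what they mark; the unnumbered arrays were set as the third pair. Deviations from the day means correlated with 0.27, 0.48 and 0.60 within the pairs, all over 0.1, and the pairing was accepted from these values, without a label that states it. The fits with the replicate block use the same values, so their p-values may be too small. The correlations across numbers 1 and 2 (0.17 and 0.14) were also over 0.1, so that these 2 numbers are less clearly told apart than the unnumbered pair.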

Additional observations from a re-analysis of the deposited data

How the results depend on the processing

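All 5 genes stayed above the detection limit with the negative controls and with 3 SD. Leaving out an array could not change this, because all 5 genes exceeded the limit set on each array. For the log2 changes, over 24 alternatives each, Nes stayed lower (-1.06 to -0.48) and was called in none, Aqp4 stayed higher (0.87 to 1.47; adjusted p 0.00108 to 0.638, limma) and was called in 2, and S100b stayed higher (0.75 to 1.69; adjusted p 0.0151 to 0.862) and was called in 1. The calls were those of the authors' processed values with the replicate block, at 1.47 for Aqp4 and 1.18 for S100b, and with title style as a block, at 1.47 for Aqp4. Gfap (-0.27 to 0.27) and Vim (-0.60 to 0.088) were called in none. Alternatives that changed only the filter, the variance fit or the block kept the log2 change of the scale they used. The 24 alternatives are therefore not 24 separate checks of direction. Gfap reversed with median scaling (-0.055), no scaling (-0.13) and the numbered arrays alone (-0.14), and Vim with the numbered arrays alone (0.034). Leaving out 1 array gave -0.27 to 0.27 for Gfap, -0.23 to 0.088 for Vim, -1.0 to -0.63 for Nes, 0.75 to 1.69 for S100b and 0.90 to 1.34 for Aqp4, with none called. For these changes the cause was not tested.

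The replicate block gave no call among the 5 genes with the signal itself: the changes were the same, and adjusted p-values were 0.0687 for Nes, 0.121 for S100b, 0.189 for Aqp4, 0.905 for Gfap and 0.832 for Vim (limma). All 6 arrays deviated most like their own number on the other day, which is seen in the data and not stated in the labels.

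The counts of all genes called, 112 higher and 49 lower, became 95 and 42 with the replicate block, 4 and 1 with the background column (limma, where 1127 had an unadjusted p under 0.05), 24 and 1 with its plain subtraction, 186 higher with 75th percentile scaling, 72 and 87 with no scaling, 266 and 81 with the authors' processed values, 64 higher with no filter, 294 and 97 with trend and robust eBayes, 114 lower with title style as a block and 0 of each with the numbered arrays alone (limma, where 1998 genes had an unadjusted p under 0.05). Leaving out 1 array gave 0 to 76 higher and 0 to 19 lower. Chosen after seeing the data, the background column with the replicate block gave 0 of each (limma, where 1347 had an unadjusted p under 0.05), and the authors' processed values gave 644 and 553 with that block and, blocked by title style, 493 and 289.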
